A study of Homo sapiens with 9 samples.

Results

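The TIMP inhibitors and a set of ADAMTS proteases were followed in multicellular tumour spheroids (MTSs) of PC-3 cells, a human prostate cancer line. The members were 4 TIMP genes (TIMP1, TIMP2, TIMP3 and TIMP4) and 5 ADAMTS genes (ADAMTS1, ADAMTS5, ADAMTS9, ADAMTS12 and ADAMTS16), taken by gene symbol from 27111 genes quantified in every library. PC-3 cells had been stably transduced with a lentiviral vector and selected with puromycin. They carried the vector alone (Empty), the long isoform of the transcription factor subunit NF-YA (NF-YAl) or its short isoform (NF-YAs), the latter 2 as murine sequences. Each library pooled 18 MTSs seeded with 5000 cells and grown for 7 days in medium with Matrigel, so all 3 groups shared the vector, the selection and the matrix. There were 3 libraries per group, lettered A, B and C for Empty and NF-YAs and A, B and D for NF-YAl. Each condition was 1 stable line, and the endogenous NF-YA gene had not been targeted in them.

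TIMPs are small secreted proteins that block the active site of metalloproteinases and so slow the breakdown of the extracellular matrix. TIMP1 and TIMP2 are soluble and act mainly on matrix metalloproteinases (MMPs), TIMP3 binds the matrix and is the TIMP known for inhibiting ADAMTS and ADAM proteases, and TIMP4 has a restricted expression pattern. ADAMTS proteins are secreted zinc proteases with thrombospondin motifs. ADAMTS1, ADAMTS5 and ADAMTS9 cleave large proteoglycans such as versican, ADAMTS12 cleaves cartilage oligomeric matrix protein, and ADAMTS16 has been linked to fibronectin cleavage. NF-Y is a trimeric transcription factor that binds the CCAAT box of promoters, and NF-YA is the subunit that gives it sequence specificity.

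In brief, TIMP3 fell in both NF-YA lines and was almost lost from NF-YAl MTSs, while the abundant TIMP1 and TIMP2 passed no call. ADAMTS1, the most abundant protease of the set, fell in NF-YAs and was lower without passing the fold limit in NF-YAl. ADAMTS5 and ADAMTS9, close to absent from Empty, rose in both lines. ADAMTS12 rose and ADAMTS16 fell in NF-YAl MTSs, neither was called in NF-YAs, and for both the direct difference between the lines passed the test. The ADAMTS12 difference between the lines was lost when some single libraries were left out. Calls of both genes were lost under some other settings given below.

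The libraries held between 18076979 and 27163976 expected counts, and ribosomal RNA genes took 2.66 to 7.71% of them. NFYA, which counts the endogenous gene and whatever murine reads aligned to it, was at 89.2 to 96.7 CPM (read counts scaled to library size) in the 3 Empty libraries, and higher with either transgene, at 287 to 383 CPM for NF-YAl and 254 to 264 CPM for NF-YAs. KRT8 and KRT18, the keratins of simple epithelium, were at 70.4 TPM (transcript counts scaled to length and library size) or more in every library. KLK3, which encodes the prostate-specific antigen, had 0 counts in all of them. Of 11 markers of fibroblasts, endothelium and immune cells, 8 stayed at or below 0.54 TPM in every library, among them the defining DCN, FAP, CDH5, PTPRC and CD3E, while PECAM1, VWF and CD68 reached 2.74, 1.06 and 41.97 TPM. TPM were not centred alike, since the median gene of NF-YAl D stood 0.80 log2 units above the Empty mean in TPM and 0.00 in CPM. Conditions are therefore compared in CPM scaled by the trimmed mean of M values (TMM), and TPM, which account for length, serve to compare genes.

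The positions of the genes were taken from GENCODE on GRCh37, the build of the deposited files. TIMP1 (chrX:47441807-47446188, plus strand), TIMP3 (chr22:33197691-33259028, plus) and TIMP4 (chr3:12194568-12200412, minus) each lie inside a synapsin gene on the opposite strand, namely SYN1, SYN3 and SYN2. Exons of TIMP1 and TIMP3 share 0 bases with exons of their host, whereas TIMP4 shares 170 bases with SYN2. TIMP2 (chr17:76849059-76921469, minus) shares 224 exon bases with CEP295NL on the same strand and 367 with an antisense lncRNA. ADAMTS1 (chr21:28208074-28217728) and ADAMTS5 (chr21:28290241-28339407) lie on the minus strand, 72512 bases apart. ADAMTS9 (chr3:64501330-64673676, minus) shares 174 exon bases with the antisense ADAMTS9-AS1. ADAMTS12 (chr5:33523640-33892124, minus) and ADAMTS16 (chr5:5140443-5320417, plus) are on one chromosome, 28203222 bases apart. Whether the counting used strand is not given in the sources used here, so reads in the shared exon bases could be split either way.

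Because NF-Y binds CCAAT boxes, the 250 bases before the start of each member were searched for CCAAT on either strand, written ATTGG when it lies on the opposite one. RefSeq promoters (GRCh38.p14 table) were at hand for 4 of the 9 members, and each matched GRCh37 at 1 place. Promoters of TIMP2, ADAMTS1, ADAMTS5, ADAMTS9 and ADAMTS16 were not analysed here. TIMP3, which fell, and TIMP4, which was barely detected, hold 1 match each, and TIMP1, which was abundant and not called, and ADAMTS12, which rose in NF-YAl, hold none. They are printed 5′ to 3′ on the strand of the gene, ending at the base before the RefSeq start, with the match in capitals.
TIMP3 (chr22:33197441-33197690, plus): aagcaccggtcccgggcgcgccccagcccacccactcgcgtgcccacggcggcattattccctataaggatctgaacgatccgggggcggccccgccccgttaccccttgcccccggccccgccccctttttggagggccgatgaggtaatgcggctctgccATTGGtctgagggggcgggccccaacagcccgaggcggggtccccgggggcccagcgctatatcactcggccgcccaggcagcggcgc
TIMP4 (chr3:12200413-12200662, minus): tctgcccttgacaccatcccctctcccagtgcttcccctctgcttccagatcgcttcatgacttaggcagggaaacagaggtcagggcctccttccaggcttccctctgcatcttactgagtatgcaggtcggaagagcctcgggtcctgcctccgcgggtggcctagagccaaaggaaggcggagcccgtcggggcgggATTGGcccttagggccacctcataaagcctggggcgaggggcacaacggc
TIMP1 (chrX:47441585-47441834, plus): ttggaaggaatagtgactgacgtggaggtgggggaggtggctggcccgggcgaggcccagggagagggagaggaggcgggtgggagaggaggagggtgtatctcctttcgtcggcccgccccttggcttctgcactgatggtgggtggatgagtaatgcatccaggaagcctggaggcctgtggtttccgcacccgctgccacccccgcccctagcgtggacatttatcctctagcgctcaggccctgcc
ADAMTS12 (chr5:33892096-33892345, minus): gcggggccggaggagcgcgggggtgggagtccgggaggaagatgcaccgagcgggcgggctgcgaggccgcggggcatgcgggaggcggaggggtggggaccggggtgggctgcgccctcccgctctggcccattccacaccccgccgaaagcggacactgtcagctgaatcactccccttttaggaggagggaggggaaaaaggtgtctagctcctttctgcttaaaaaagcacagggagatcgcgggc
The match of TIMP3 is at -88 to -84 and that of TIMP4 at -50 to -46 from the start. The letters occur in 32.0% of 35116 promoters of that length, and in 34.5% of the 12173 promoters whose gene was tested here. A match is a description of the letters and not a site shown to be bound.

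Per length, the set spanned a wide range in the Empty MTSs. TIMP1 was highest at 434 ± 38.6 TPM (SD, n = 3), above TIMP2 at 75.4 ± 16.1 and ADAMTS1 at 71.8 ± 5.20 TPM, whose libraries overlapped each other. TIMP3 followed at 4.61 ± 1.63 TPM and ADAMTS16 at 1.81 ± 0.312 TPM, with no overlap between them. TIMP4, ADAMTS12, ADAMTS9 and ADAMTS5 were at or below 0.13 TPM in every Empty library. Each of these 4 held at most 5 counts in any Empty library, too few to rank them, and ADAMTS5 was listed at 0 TPM in all 3. In the NF-YAs MTSs ADAMTS9 reached 1.13 ± 0.116 TPM and stood above TIMP3 at 0.297 ± 0.127 TPM, an order opposite to that of Empty.

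**Figure D1:**
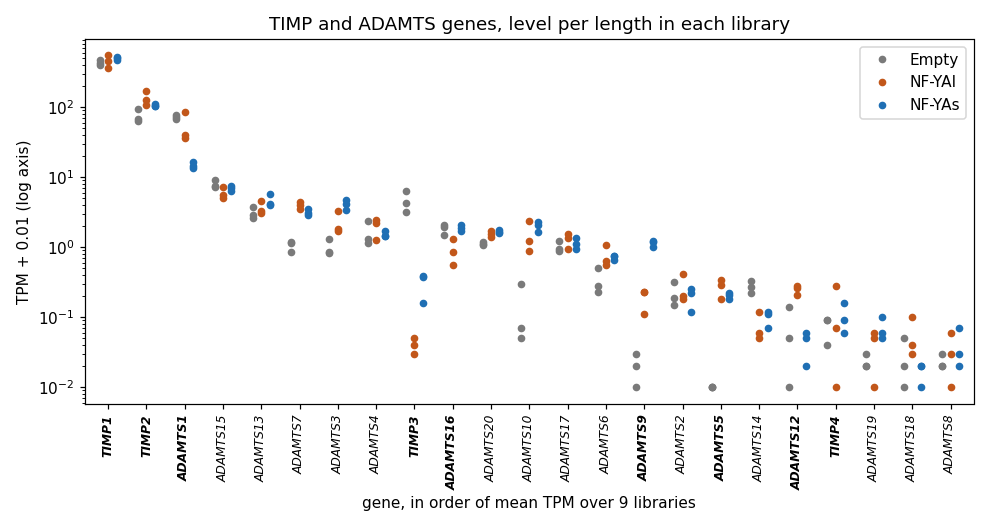
TPM + 0.01 (log axis) of the TIMP and ADAMTS genes in each of the 9 libraries, in order of their mean, with the 9 genes described here in bold and each point 1 library. TIMP1 lies highest, TIMP3 spreads from 6.38 TPM in an Empty library to 0.02 TPM in an NF-YAl library, and ADAMTS5 is listed at 0 in all Empty libraries.

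Changes between lines were tested with the quasi-likelihood F test of edgeR over all 17108 genes that passed the filter on low counts. A gene was called differentially expressed (DEG) at a Benjamini-Hochberg adjusted p under 0.01 and an absolute log2 fold change (log2FC) over 1. Of the 9 members 8 were tested, as TIMP4 did not pass the filter. Between NF-YAl and Empty, 5 of the 8 were DEGs, 3 higher and 2 lower, where 8.27% of all tested genes were DEGs, 4.76% higher and 3.50% lower. Between NF-YAs and Empty, 4 were DEGs, 2 in each direction, where the shares over all genes were 9.34% in all, 5.44% higher and 3.90% lower. Between NF-YAl and NF-YAs, 5 were DEGs, 2 higher and 3 lower in NF-YAl, where the shares were 4.61% in all, 1.74% higher and 2.86% lower. ADAMTS5, ADAMTS9 and ADAMTS12 held at most 5 counts in any Empty library and passed the filter only through the libraries where they were high. Against Empty they could hardly have been called lower, so the numbers of higher members are no result about the set. ADAMTS12 passed through NF-YAl alone, with at most 7 counts in any NF-YAs library. Between the lines it could hardly have been called lower in NF-YAl, so those numbers have the same limit. The members' libraries did not overlap in CPM for 7, 5 and 5 genes in these comparisons, and the same held for 42.4%, 56.4% and 39.6% of all tested genes. The comparisons of both lines with Empty share the Empty libraries, so their values are given side by side only.

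**Figure D2:**
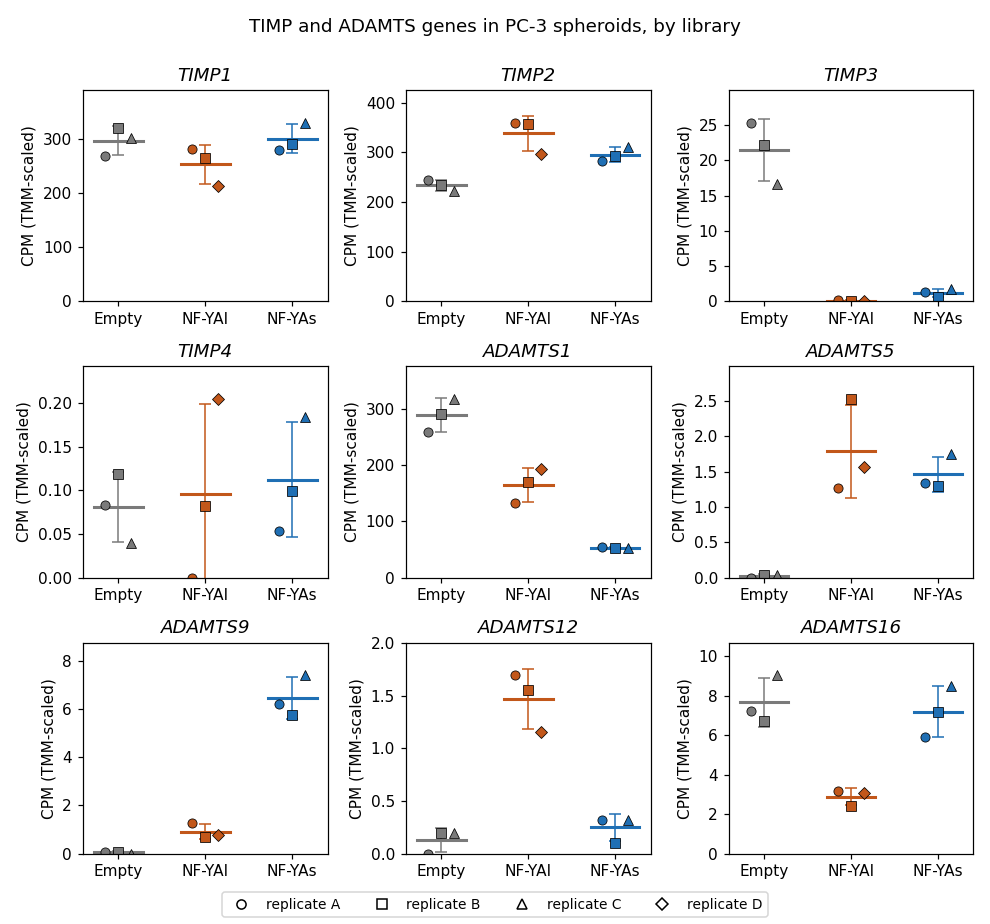
TMM-scaled CPM of the 9 genes in each library, on linear axes that start at 0, with bars at the mean and error bars of 1 SD (n = 3), cut at 0. TIMP3 drops from at least 16.7 CPM in Empty to at most 0.159 CPM in NF-YAl and 1.75 CPM in NF-YAs, whereas TIMP1 overlaps between all groups.

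TIMP3 showed the deepest fall of the set. It was at 25.4, 22.2 and 16.7 CPM in Empty A, B and C, at 0.159, 0.0818 and 0.0822 CPM in NF-YAl A, B and D, and at 1.40, 0.647 and 1.75 CPM in NF-YAs A, B and C. The 3 groups did not overlap, with Empty highest, NF-YAs intermediate and NF-YAl lowest in every library. In reads, the Empty libraries held 605, 559 and 425 TIMP3 counts, the NF-YAs libraries 26, 13 and 38, and the NF-YAl libraries 3, 2 and 2. The level in Empty was 206 times that in NF-YAl, with an exact 95% counting interval of 99.9 to 514, which covers counting error only. The fitted log2FC was -7.62 ± 0.40 (SE, adjusted p = 3.17e-07), the 4th largest in size of all tested genes in that comparison, but with so few counts in NF-YAl its size depends on the prior count of the fit. In NF-YAs the log2FC was -4.07 ± 0.28 (adjusted p = 1.56e-06), a 16.8-fold lower level. Directly compared, NF-YAl lay below NF-YAs with a log2FC of -3.55 ± 0.51 (adjusted p = 0.000595), and the NF-YAs level was 12.3 times that of NF-YAl (counting interval 5.71 to 31.7). In pooled MTSs, fewer cells that express a gene and less RNA per cell cannot be told apart.

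The fall of TIMP3 was shared by its host gene SYN3, which encodes a synapsin, a phosphoprotein of synaptic vesicles. SYN3 was at 17.8, 19.1 and 14.96 CPM in Empty A, B and C, at 0.159, 0.204 and 0 CPM in NF-YAl A, B and D, and at 1.56, 1.09 and 1.11 CPM in NF-YAs A, B and C. Both genes thus had the same order of groups with no overlap. The log2FC of SYN3 was -7.12 ± 0.39 (adjusted p = 3.48e-07) in NF-YAl and -3.79 ± 0.28 (adjusted p = 2.28e-06) in NF-YAs. The other synapsin hosts did not follow this. SYN1, the host of TIMP1, was not called in any comparison, and SYN2, the host of TIMP4, rose in NF-YAs by a log2FC of 1.75 ± 0.29 (adjusted p = 0.000628). Outside the synapsin gene the fall of TIMP3 was not shared. Of the 20 tested genes nearest to it, 10 on each side, 0 had a log2FC below -1 in NF-YAl and 1 in NF-YAs, with medians of -0.115 and -0.029. FBXO7, a nearby tested gene beyond SYN3, was at a log2FC of -0.33 in NF-YAl.

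**Figure D3:**
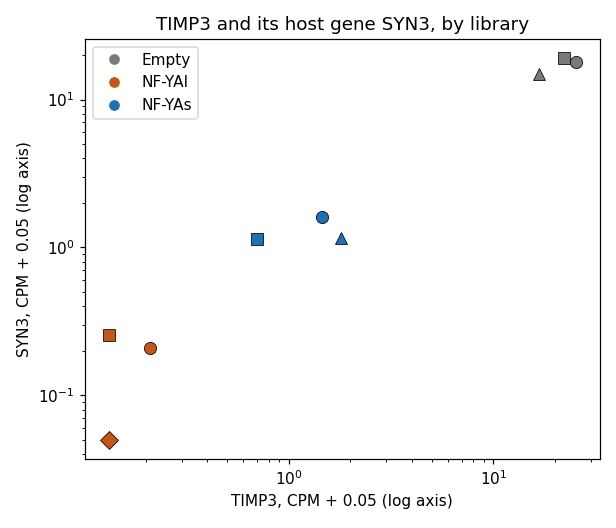
TIMP3 against SYN3 in each of the 9 libraries, as TMM-scaled CPM + 0.05 on 2 log axes, coloured by group. The Empty libraries sit at the upper right with TIMP3 between 16.7 and 25.4 CPM, those of NF-YAs in the middle with TIMP3 between 0.647 and 1.75 CPM, and those of NF-YAl at the lower left with SYN3 at 0 to 0.204 CPM.

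TIMP1, the most abundant member, was not called in any comparison. It was at 269, 320 and 301 CPM in Empty A, B and C, at 282, 264 and 213 CPM in NF-YAl A, B and D, and at 279.9, 291 and 329.9 CPM in NF-YAs A, B and C. All 3 groups overlapped. The log2FC against Empty was -0.23 for NF-YAl (95% interval -0.49 to 0.03, adjusted p = 0.171) and 0.02 for NF-YAs (-0.24 to 0.28, adjusted p = 0.926).

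TIMP2, which both inhibits MMPs and helps membrane-type MMPs to activate pro-MMP2, lay higher in both lines but under the fold limit. It was at 245, 233 and 222 CPM in Empty A, B and C, at 359.8, 357 and 297 CPM in NF-YAl A, B and D, and at 282, 292 and 311 CPM in NF-YAs A, B and C. Every library of both lines was above every Empty library, and the lines overlapped each other. The log2FC against Empty was 0.53 ± 0.10 for NF-YAl (adjusted p = 0.00163) and 0.34 ± 0.10 for NF-YAs (adjusted p = 0.0200), a 1.45-fold and a 1.26-fold difference. The direct difference of the lines was 0.20 (95% interval -0.02 to 0.41, adjusted p = 0.180).

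The balance within the inhibitors was also read per length, with ratios chosen after the values were seen. The ratio of TIMP2 to TIMP1 in TPM was 0.173 ± 0.0223 (SD, n = 3) for Empty MTSs, 0.292 ± 0.0145 for NF-YAl and 0.213 ± 0.00659 for NF-YAs. MMP14 is the membrane-type protease that pairs with TIMP2, and its ratio to TIMP2 was 0.406 ± 0.0710 for Empty MTSs, 0.531 ± 0.0310 for NF-YAl and 0.569 ± 0.0239 for NF-YAs. Both ratios were thus lowest in Empty. Of 6 exact two-sided permutation tests on these ratios, 5 gave p = 0.1, the smallest that 3 against 3 libraries allow, and MMP14 to TIMP2 between the lines gave p = 0.2 (Benjamini-Hochberg adjusted 0.12 and 0.2). With 3 libraries a group this test cannot reach 0.05.

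TIMP4 was close to absent. Its libraries held at most 5 counts, with sums of 6, 7 and 7 over the Empty, NF-YAl and NF-YAs groups, and 0 to 0.27 TPM. No difference between the groups was detectable at this depth.

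ADAMTS1, a protease of versican and other proteoglycans, was the only ADAMTS member with a high level in Empty. It was at 259, 292 and 319 CPM in Empty A, B and C, at 132, 169.6 and 193 CPM in NF-YAl A, B and D, and at 54.4, 53.0 and 52.5 CPM in NF-YAs A, B and C. The groups did not overlap, with Empty highest and NF-YAs lowest. In NF-YAs ADAMTS1 fell 5.44-fold (log2FC -2.44 ± 0.14, adjusted p = 4.21e-07). In NF-YAl the log2FC of -0.81 ± 0.13 (adjusted p = 0.000543) passed the adjusted p but not the fold limit. The difference between the lines was itself called, with a log2FC of 1.63 ± 0.13 (adjusted p = 1.88e-05). In TPM the Empty and NF-YAl groups overlapped, since NF-YAl D was listed at 84.88 TPM beside 36.47 and 39.90 TPM in NF-YAl A and B.

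ADAMTS5, an aggrecanase and versicanase that lies next to ADAMTS1, went the other way. It had 0, 1 and 1 counts in Empty A, B and C, 24, 62 and 38 in NF-YAl A, B and D, and 25, 26 and 38 in NF-YAs A, B and C. That is 0 to 0.0397 CPM for Empty libraries, 1.27 to 2.54 CPM for NF-YAl and 1.29 to 1.75 CPM for NF-YAs. Both lines lay above Empty in every library and overlapped each other, at levels that stayed low. Against Empty the ratio was 68.2 in NF-YAl (counting interval 18.5 to 569) and 54.9 in NF-YAs (14.7 to 460), and against a floor of 3 counts per Empty library it was 14.8 and 12.1. edgeR called both (adjusted p = 1.78e-05 and 2.57e-05), with fitted log2FC of 5.80 and 5.51 that depend on the prior count. Between the lines the log2FC was 0.30 (95% interval -0.41 to 1.002, adjusted p = 0.540).

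ADAMTS9, another versican-cleaving protease, rose in both lines and further in NF-YAs. It was at 0.0839, 0.0795 and 0 CPM in Empty A, B and C, at 1.27, 0.695 and 0.780 CPM in NF-YAl A, B and D, and at 6.19, 5.77 and 7.42 CPM in NF-YAs A, B and C. The 3 groups did not overlap, in the order Empty, NF-YAl, NF-YAs. The Empty libraries held 2, 2 and 0 counts, against 24, 17 and 19 in NF-YAl and 115 to 161 in NF-YAs. The ratio to Empty was 16.5 in NF-YAl (counting interval 6.12 to 62.5) and 121 in NF-YAs (46.8 to 446), or 7.57 and 53.4 against the floor of 3 counts per library, and edgeR called both (adjusted p = 0.000204 and 1.32e-06). NF-YAl lay below NF-YAs by a called log2FC of -2.84 ± 0.31 (adjusted p = 8.88e-05), a 7.14-fold difference. The 20 tested genes nearest to ADAMTS9 had median log2FC of 0.42 in NF-YAl and 0.44 in NF-YAs.

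ADAMTS12 was higher in NF-YAl than in either other group. It had 0, 5 and 5 counts in Empty A, B and C, 32, 38 and 28 in NF-YAl A, B and D, and 6, 2 and 7 in NF-YAs A, B and C. In CPM this was 0, 0.199 and 0.197 for Empty, 1.70, 1.55 and 1.15 for NF-YAl, then 0.323, 0.0995 and 0.323 for NF-YAs. The NF-YAl libraries stood above the other 6, which overlapped. Against Empty the log2FC was 3.39 ± 0.56 (adjusted p = 0.000682) in NF-YAl and 0.87 (95% interval -0.71 to 2.44, adjusted p = 0.384) in NF-YAs. NF-YAl exceeded NF-YAs by 2.53 ± 0.53 (adjusted p = 0.00531), a call that was lost without NF-YAl B (2.48, adjusted p = 0.0166), NF-YAs A (2.74, 0.0172), NF-YAs B (2.16, 0.0294) or NF-YAs C (2.78, 0.0203). With an offset for effective length, which RSEM set from 3 transcripts of 1177 to 8774 bases, edgeR lost both calls, at 2.26 (adjusted p = 0.0282) against Empty and 2.55 (adjusted p = 0.0128) against NF-YAs.

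ADAMTS16 was lower in NF-YAl and not called in NF-YAs. It was at 7.21, 6.72 and 9.05 CPM in Empty A, B and C, at 3.18, 2.41 and 3.08 CPM in NF-YAl A, B and D, and at 5.92, 7.17 and 8.48 CPM in NF-YAs A, B and C. The NF-YAl libraries lay below all others, and those of Empty and NF-YAs overlapped. ADAMTS16 fell 2.65-fold in NF-YAl (log2FC -1.41 ± 0.20, adjusted p = 0.000245), while in NF-YAs the log2FC was -0.09 (95% interval -0.50 to 0.32, adjusted p = 0.748). NF-YAl lay below NF-YAs by a called log2FC of -1.32 ± 0.20 (adjusted p = 0.000861). With limma on log2(TPM + 0.1) both calls were lost, at -1.005 against Empty (adjusted p = 0.0438) and -1.07 against NF-YAs (adjusted p = 0.0529).

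**Figure D4:**
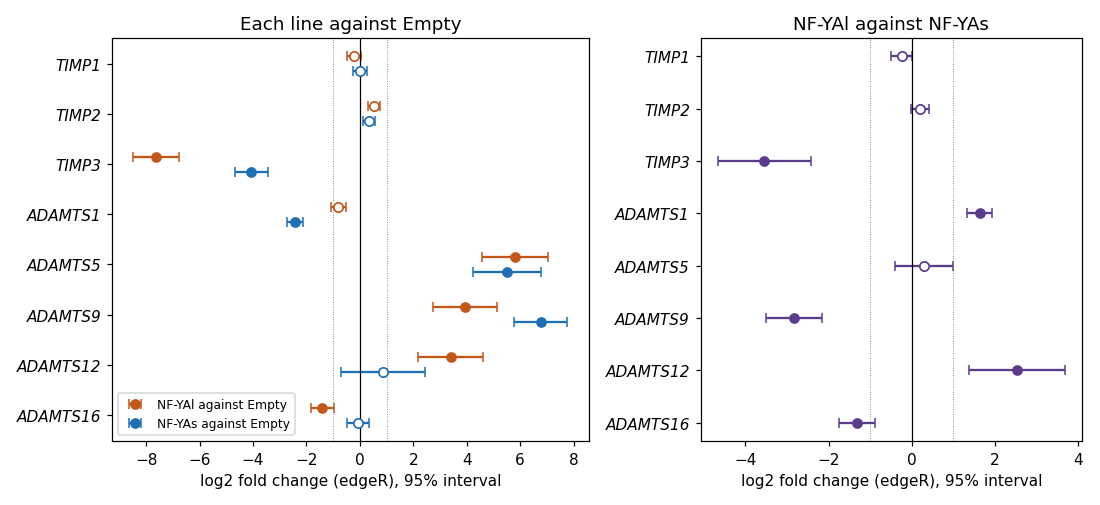
edgeR log2FC with 95% intervals for the 8 tested genes, against Empty at the left and NF-YAl against NF-YAs at the right, with filled points for DEGs, open points for the others and dotted lines at the fold limit. TIMP3 lies far to the left at -7.62 and -4.07, ADAMTS5 and ADAMTS9 lie to the right in both lines, and at the right 5 of the 8 intervals lie clear of 0.

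Of the 9 members 3 had more than 1 RefSeq transcript in the files, and the share of each is an estimate by RSEM. For ADAMTS9, NM_182920.1 took 100, 55.9 and 67.4% in NF-YAs A, B and C and 0% in all NF-YAl libraries, where all 17 to 24 counts went to NM_001318781.1. For ADAMTS12, the NF-YAl counts all went to NM_001324512.1. ADAMTS16 counts of every Empty and NF-YAl library went mostly to NR_136935.1, a transcript that RefSeq lists as non-coding. The coding transcript NM_139056.3 took 14.6 to 28.3% of the gene in Empty libraries, 0 to 18.8% for NF-YAl and 28.2 to 57.7% for NF-YAs. Its share in NF-YAl thus overlapped with Empty, and the highest share of Empty lay just above the lowest of NF-YAs.

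The other 14 ADAMTS proteases were read from a list made with general knowledge, of which 11 were tested. Among all tested genes, 8.27% and 9.34% were DEGs for NF-YAl and NF-YAs against Empty, and 4.61% between the lines. In the lists here and below, ADAMTS10, MMP2, MMP7, ADAM33, COL1A2 and PCSK5 passed the filter only through lines where they were high. Each held at most 13 counts in any Empty library. ADAMTS14 and BGN passed only through Empty. Such genes could hardly have been called the other way, so the list counts are no result about a list. Against Empty, NF-YAl had 2 higher (ADAMTS7 and ADAMTS10) and 1 lower (ADAMTS14, log2FC -2.33 ± 0.48), all 4 called genes of NF-YAs were higher (ADAMTS3, ADAMTS6, ADAMTS7 and ADAMTS10), and ADAMTS3 was the 1 called between the lines, lower in NF-YAl. The median log2FC of the 11 was 0.12, 0.42 and -0.23 in these comparisons, beside 0.011, -0.003 and 0.018 over all tested genes. ADAMTS10, which acts on microfibrils, was at 0.04 to 0.29 TPM in the Empty libraries, 0.87 to 2.38 TPM with NF-YAl and 1.66 to 2.25 TPM with NF-YAs, with log2FC of 3.90 ± 0.56 and 4.38 ± 0.55. ADAMTS7, which cleaves cartilage oligomeric matrix protein, rose by 1.65 ± 0.19 and 1.41 ± 0.19. ADAMTS3, a procollagen N-proteinase, rose in NF-YAs by 1.91 ± 0.15 and reached 0.86 ± 0.15 in NF-YAl, below the fold limit. These 3 genes share the direction of ADAMTS5 and ADAMTS9 rather than that of ADAMTS1, but other genes of the list lay lower, as ADAMTS1 did. ADAMTS14 was at -1.71 ± 0.45 in NF-YAs, not called. ADAMTS15, the most abundant of the list in Empty at 7.98 TPM, was at -0.72 ± 0.11 in NF-YAl and -0.35 ± 0.11 in NF-YAs, both not called. The 7 ADAMTS-like proteins tested, which lack the protease domain, gave 0 calls in edgeR in any comparison, while 4, 3 and 4 of them had an unadjusted p under 0.05, DESeq2 called 1 in NF-YAs against Empty only, and limma on log2(TPM + 0.1) called 0.

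The main other targets of the TIMPs were mixed. Of 10 tested MMPs outside the membrane-type list below, NF-YAl had 3 higher (MMP7, MMP9 and MMP23B) and 1 lower (MMP13) than Empty. NF-YAs had 3 higher (MMP2, MMP7 and MMP9) and 4 lower (MMP1, MMP3, MMP10 and MMP13). Between the lines, NF-YAl had 3 higher (MMP3, MMP10 and MMP23B) and 2 lower (MMP2 and MMP9). MMP9, a gelatinase, rose by a log2FC of 1.495 ± 0.25 in NF-YAl and 3.03 ± 0.24 in NF-YAs, and differed between them by -1.53 ± 0.21. MMP13, a collagenase, had log2FC of -1.75 ± 0.16 and -1.21 ± 0.16 in the same order. MMP23B rose in NF-YAl by 2.89 ± 0.27 and was at 0.22 ± 0.30 in NF-YAs. MMP7 had at most 3 counts in an Empty library and reached 0.61 to 0.83 TPM in NF-YAl and 0.64 to 1.55 TPM in NF-YAs.

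The 6 membrane-type MMPs held 1 gene above Empty for NF-YAl and 3 for NF-YAs among the DEGs, with the rest not called, and the medians of the list were 0.74 and 1.11. Of the 6, 0 were called between the lines by edgeR, where 5 had an unadjusted p under 0.05, DESeq2 called 0 and limma called 0. MMP15 rose in both lines (2.20 ± 0.22 and 1.63 ± 0.22), and MMP25 and MMP17 rose in NF-YAs by 1.64 ± 0.29 and 1.39 ± 0.33. MMP14 was at 0.93 ± 0.13 and 0.83 ± 0.13, under the fold limit in both. MMP2, the substrate of the TIMP2 and MMP14 pair, was singled out after its values were seen, and was listed at 0 in every Empty library, at 0 to 0.03 TPM with NF-YAl and at 0.37 to 0.44 TPM with NF-YAs.

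Of 8 ADAM sheddases tested, a family that TIMP3 inhibits in part, NF-YAl had 2 higher and 1 lower than Empty, both called genes of NF-YAs were higher, and NF-YAl had 2 lower than NF-YAs, ADAM8 and ADAM33. ADAM12 rose in both lines (1.26 ± 0.19 and 1.72 ± 0.19). ADAM33 was at 0.01 TPM in every Empty library, at 0.07 to 0.19 TPM with NF-YAl and at 1.35 to 2.71 TPM with NF-YAs. ADAM8 had a called log2FC of -1.32 ± 0.13 in NF-YAl and one of 0.38 ± 0.13, not called, in NF-YAs, and this difference was called (-1.70 ± 0.13, adjusted p = 1.57e-05). ADAM10 and ADAM17, the main sheddases of the cell surface, had log2FC of 0.01 ± 0.11 and 0.08 ± 0.09 in NF-YAl.

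Among 13 tested genes whose products ADAMTS proteases cleave, both called genes of NF-YAl were higher (VCAN and COL3A1), NF-YAs had 4 higher (VCAN, THBS1, COL1A1 and COL1A2) and 1 lower (BGN), and all 3 called between the lines were lower in NF-YAl (THBS1, COL1A1 and TFPI2). VCAN, which encodes versican, rose by a log2FC of 1.10 ± 0.27 and 1.28 ± 0.27 at low levels. It was at 0.08 to 0.18 TPM in the Empty libraries, 0.17 to 0.38 TPM with NF-YAl, which overlapped Empty, and 0.27 to 0.29 TPM with NF-YAs. COL1A2 was also low, at 0.02 to 0.05 TPM in Empty and 0.20 to 0.38 TPM with NF-YAs. COL3A1, a fibrillar procollagen, rose in NF-YAl by 2.04 ± 0.44. In NF-YAs it was at 1.59 ± 0.43, short of a call by edgeR (adjusted p = 0.0127), and it was not called between the lines (adjusted p = 0.461). THBS1, which encodes thrombospondin 1, rose in NF-YAs by 2.29 ± 0.19 and COL1A1, another fibrillar procollagen, by 1.67 ± 0.18. TFPI2 differed between the lines by -1.67 ± 0.25 with values of -0.91 and 0.76 against Empty. Of 11 tested genes for uptake, binding partners and other inhibitors, NF-YAl had 2 higher (KDR and SPOCK3) and 1 lower (SPOCK1) than Empty, NF-YAs had the same 2 higher, and between the lines KDR was higher and SPOCK1 lower in NF-YAl. KDR, the VEGF receptor that TIMP3 is known to bind, rose by 4.01 ± 0.27 and 2.94 ± 0.26, with 5.45 to 6.40 TPM in the Empty libraries, 79.8 to 149 TPM with NF-YAl and 38.0 to 56.5 TPM with NF-YAs. The order of the groups for KDR was the reverse of that for TIMP3. SPOCK3 rose in both lines (1.42 ± 0.30 and 1.66 ± 0.30), and SPOCK1 had a log2FC of -1.28 ± 0.19 in NF-YAl. Of 6 genes that process ADAMTS proteins, PCSK5 alone was called, higher in both lines, at or below 0.02 TPM in Empty and at most 0.55 TPM elsewhere.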

How the data were processed

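RNA sequencing of 9 libraries (TruSeq Stranded Total RNA) was quantified by the authors with Bowtie2 and RSEM 1.3.1 on human RefSeq transcripts (hg19, that is GRCh37), and they deposited expected counts and TPM per gene and per transcript. The deposited percent of each transcript within its gene and the deposited effective length were also used. Replicates are lettered samples, from independent experiments by the study's methods. Nothing in the labels says so, and p-values measure the spread between these samples only.

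Expected counts were rounded to whole numbers, filtered with filterByExpr, scaled by TMM and tested with the quasi-likelihood F test of edgeR 4.0.16 (R 4.3.3), with all 9 libraries in 1 fit and Benjamini-Hochberg adjustment over 17108 genes. The procedure was tested on simulated data. SE is the size of the log2FC over the square root of F, and intervals use the total degrees of freedom. A group with no library above 3 counts was taken as near the floor. The plan had been to give a bound there, and the ratio of summed counts with an exact 95% interval and the ratio to 3 counts per library are given instead. Alternatives were DESeq2 1.42.0, other scalings, filters, sample sets and thresholds, a replicate block, a length offset, limma 3.58.1 on log2(TPM + 0.1) and log2(TPM + 1), and leaving out each library.

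Members, lists and tests were chosen with earlier results of these data known. Named were all members, up to 4 called genes of each list with the largest absolute log2FC and a mean of at least 1 TPM in a group, the synapsins and, per member, the 3 genes with at least 5 CPM and the highest Pearson r. Other genes named fall outside that rule and were chosen after their values were seen. They identify counts of 5 or fewer, are known partners, or show genes of a list that went the other way. ADAMTSL6 is another name of THSD4, which was tested among the ADAMTS-like proteins. Some genes of the marker list and near the members are not reported here.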

Additional observations from a re-analysis of the deposited data

Results flagged for a closer look

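The direct test between NF-YAl and NF-YAs marked 5 of the 8 tested members as different between the lines, by the edgeR quasi-likelihood test with Benjamini-Hochberg adjustment. Each isoform was 1 stable line, and NFYA itself had a log2FC of 0.39 between them, not called. Isoform, transgene level and line therefore cannot be told apart. Of all tested genes, 4.61% were called in this comparison. ADAMTS12 passed the filter only through NF-YAl, so it could hardly have been called lower there, and the number is no result about the set. TIMP3 was lower in NF-YAl than in NF-YAs by a log2FC of -3.55, ADAMTS9 by -2.84 and ADAMTS16 by -1.32. ADAMTS1 was higher in NF-YAl by 1.63 and ADAMTS12 by 2.53. For each of these 5 genes every NF-YAl library lay on one side of every NF-YAs library, in CPM and in TPM. They were picked by the call on these same libraries, so this adds no support. Of all tested genes, 39.6% had no overlap in CPM between these groups. For TIMP3, ADAMTS1 and ADAMTS9 both lines lay on the same side of Empty, so the difference was one of size, while ADAMTS12 and ADAMTS16 were called against Empty in NF-YAl and not in NF-YAs.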

How the results depend on the processing

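Of the values recomputed for single members, 413 kept their direction and side of the threshold, 19 lost a call and 12 turned sign, none of the 12 a called value. The number of members called was 5 in NF-YAl, 4 in NF-YAs and 5 between the lines. Asking for at least 10 counts in every library left only 4 members to test and gave 1, 1 and 2. limma on log2(TPM + 0.1) gave 3 in NF-YAl, 4 in NF-YAs and 3 between the lines, losing ADAMTS12 and ADAMTS16 in NF-YAl and between the lines. On log2(TPM + 1) it gave 1, 3 and 1, losing also ADAMTS5 and ADAMTS9 in NF-YAl, ADAMTS5 in NF-YAs, and TIMP3 and ADAMTS9 between the lines. These TPM scales moved the median of all genes, by 0.29 and 0.22 in NF-YAl, 0.17 and 0.12 in NF-YAs, and 0.13 and 0.10 between the lines. Leaving out 1 library gave 5 in NF-YAl, 4 in NF-YAs and 4 to 5 between the lines, the lost call being ADAMTS12 without NF-YAl B or any NF-YAs library. The turned signs were as follows. In NF-YAl, TIMP1 went to 0.066 with limma on either scale. In NF-YAs, TIMP1 ranged from -0.058 to 0.077 when 1 library was left out, ADAMTS12 went to -0.285 with the length offset and to -0.16 and -0.031 with limma, and ADAMTS16 went to 0.064 and 0.041 with limma and ranged from -0.229 to 0.047 when 1 library was left out. Between the lines, ADAMTS5 ranged from -0.044 to 0.479 when 1 library was left out. The cause was not tested. With a replicate block on the letter, 5, 4 and 5 members were called. Residuals of same-lettered libraries correlated between -0.065 and 0.253, not above 0.1 in every pair, so the letters were not taken to pair the samples, and NF-YAl D adds nothing under the block. Depth limited TIMP4 in all groups, TIMP3 in NF-YAl, and ADAMTS5, ADAMTS9 and ADAMTS12 in Empty.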

Other observations

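Markers of the prostate and epithelial state varied beside the TIMP and ADAMTS genes, and their part in those results was not tested. Of 8 such markers tested, NF-YAl had 2 higher and 3 lower than Empty, NF-YAs had 3 higher and 2 lower, and NF-YAl had 2 higher and 1 lower than NF-YAs. EPCAM rose by a log2FC of 2.16 ± 0.25 and 1.46 ± 0.26, while the keratins lay lower in both lines. KRT8 had log2FC of -1.33 ± 0.10, which was called, in NF-YAl and -0.78 ± 0.10, not called, in NF-YAs. KRT18 was at -0.42 ± 0.10 and -0.49 ± 0.10, both not called. TMPRSS2 had log2FC of -1.72 ± 0.20 and -2.59 ± 0.21.

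Of 11 markers of other cell types, 4 were tested. In NF-YAl 2 were lower, VWF at -3.23 ± 0.23 and CD68 at -1.07 ± 0.19. In NF-YAs 1 was lower, PECAM1 at -1.73 ± 0.20. Between the lines 1 was higher and 1 lower in NF-YAl. CD68 is a lysosomal protein that epithelial cells also express.

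By Pearson r of log2 CPM over the 9 libraries, among about 12124 genes with at least 5 CPM, the patterns most like those of the members were, for TIMP1, OSMR (0.974), TUBGCP2 (0.954) and MLF2 (0.944), for TIMP2, TNKS (0.986), C1orf21 (0.981) and ENC1 (0.981), for TIMP3, DIAPH1 (0.991), KRT8 (0.990) and GM2A (0.988), for ADAMTS1, NFIL3 (0.994), CD59 (0.993) and HSPA1B (0.991), for ADAMTS5, LPAR3 (0.994), SLC29A4 (0.994) and ICAM1 (0.993), for ADAMTS9, EMC1 (0.990), ANK2 (0.989) and TMEM241 (0.989), for ADAMTS12, ZSCAN26 (0.968), FAM188A (0.966) and VSTM2L (0.966), and for ADAMTS16, ZC3HAV1 (0.979), IFIT5 (0.978) and HERC6 (0.967). The libraries fall into 3 groups and share them, so these values describe mainly the order of the group means.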
